A study of Homo sapiens with 6 samples.

Results

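Messenger RNA of 9 genes of the endoplasmic reticulum (ER) N-glycan trimming cycle was compared between HEY cells with a siRNA against CCNL2 (siCCNL2) and HEY cells with a control siRNA (siNC). The genes were GANAB, PRKCSH, MOGS, UGGT1, UGGT2, MAN1B1, CANX, CALR and LMAN1. Each was found once, by its symbol, among the 60835 distinct gene names of the deposited tables, and all 9 passed the filter on low counts. GANAB, the gene that gave the group its name, had been picked because of its difference in this same contrast, and its partners were added by their role with the results known. Differences of the 9 genes between the groups are therefore given as a description, without p-values.

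HEY is an established human ovarian cancer line. Total RNA of 3 siCCNL2 and 3 siNC libraries was sequenced; groups follow the sample titles and the genotype label. The treatment text of all 6 libraries, siNC included, names the siRNA against CCNL2 and 48 h, so it does not describe the siNC treatment, and siNC is taken here as the control from its label alone. Nothing in the labels tells whether replicates were separate cultures, so every p-value rests on library-to-library variation that could be technical. Total counts were 13596286 to 18095529 per siCCNL2 library and 15771604 to 16934044 per siNC library.

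CCNL2, the siRNA target and the gene for cyclin L2, had 203, 182 and 186 CPM (counts per 1000000 reads counted, TMM-scaled) in siCCNL2, against 261, 267 and 246 CPM in siNC. All siCCNL2 libraries were lower than all siNC libraries, and the mean was 190.0 CPM against 258 CPM (log2 fold change -0.44, SE 0.044). Keratin transcripts of an epithelial line and PAX8, a marker of ovarian carcinoma, were present, while CDH1, MUC16 and FOLR1 had 0 to 7 counts per library. The summed level of 6 epithelial markers ran from 1530 to 1683 CPM in siCCNL2 and from 2023 to 2105 CPM in siNC. The sum ran from 127 to 134 CPM in siCCNL2 and from 143 to 149 CPM in siNC for 5 ovarian carcinoma markers, and from 2597 to 2732 CPM in siCCNL2 and 2532 to 2656 CPM in siNC for 3 mesenchymal markers. For 3 stromal fibroblast markers it was 6.79 to 8.40 CPM in siCCNL2 and 10.8 to 12.2 CPM in siNC. Of 4 leukocyte markers none exceeded 4 counts in any library, and CD68 and the fibroblast marker DCN were at 0 in all 6. The endothelial cadherin gene CDH5 was nevertheless expressed, at 47.2 ± 5.22 CPM in siCCNL2 and 114 ± 3.17 CPM in siNC (SD, n = 3 each), and the sum of 3 endothelial markers was 45.3 to 54.8 CPM in siCCNL2 and 115 to 120 CPM in siNC. Each sum follows its most abundant genes, and single markers could differ from it. EPCAM (log2 fold change 0.58) and SOX17 (0.36) were higher in all siCCNL2 libraries, at low levels and without a call. CDH2 was called higher (0.21, edgeR adjusted p = 3.53e-04), while VIM and FN1 were not called. KRT7 (-0.59), KRT8 (-0.24), KRT18 (-0.22), PAX8 (-0.17) and WT1 (-0.46) were called lower. So were CDH5 (-1.28), PECAM1 (-1.41, 12 to 44 counts per library) and COL1A1 (-0.63). Across these lower genes the edgeR adjusted p ran from 5.48e-14 to 0.0135. VWF had few counts and was not called (0.05), and KRT19 was not called either (-0.27). The part of these marker differences in the results that follow was not tested.

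Most proteins that enter the ER receive a branched sugar, the N-glycan, which carries terminal glucoses. Glucosidase I removes the outermost glucose, and glucosidase II, a dimer of a catalytic alpha chain and a regulatory beta chain, removes the rest one at a time. The intermediate with a single glucose is held by the lectin chaperones calnexin and calreticulin. If the protein is still unfolded after release, the enzyme UGGT adds a glucose back and the cycle repeats; mannose trimming ends it and directs proteins that stay misfolded to degradation, while cargo receptors take folded proteins to the Golgi. Inherited loss of function of the genes for either glucosidase II chain causes polycystic disease of the liver or kidney.

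The sequences just before a RefSeq start of 4 of the genes are shown. Those of both glucosidase II chains were chosen because these genes differed most between the groups. Those of the paired lectin chaperones were chosen because they carry the one stress element found. They are RefSeq sequences on build GRCh38.p14, read 5′ to 3′ on the strand of the gene, with the last base just before the start. Capitals mark the letters CCAAT on either strand and the fixed letters of the ER stress response element, which is CCAAT, then 9 bases of any kind, then CCACG. GANAB is chr11:62646614-62646813, minus strand. PRKCSH is chr19:11435435-11435634, plus strand. CANX is chr5:179698729-179698928 and CALR chr19:12938359-12938608, both plus strand.
GANAB: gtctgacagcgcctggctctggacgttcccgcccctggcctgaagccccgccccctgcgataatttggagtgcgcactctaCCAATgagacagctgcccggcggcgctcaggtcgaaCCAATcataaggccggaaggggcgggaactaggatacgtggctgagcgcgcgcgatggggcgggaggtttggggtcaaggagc
PRKCSH: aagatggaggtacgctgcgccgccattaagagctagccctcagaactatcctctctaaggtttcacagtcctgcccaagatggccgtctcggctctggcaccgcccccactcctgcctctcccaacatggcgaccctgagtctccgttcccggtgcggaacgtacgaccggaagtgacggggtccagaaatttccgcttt
CANX: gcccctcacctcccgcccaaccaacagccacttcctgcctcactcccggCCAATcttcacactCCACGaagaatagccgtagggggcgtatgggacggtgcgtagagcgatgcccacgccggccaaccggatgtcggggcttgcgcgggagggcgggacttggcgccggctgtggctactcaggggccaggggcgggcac
CALR: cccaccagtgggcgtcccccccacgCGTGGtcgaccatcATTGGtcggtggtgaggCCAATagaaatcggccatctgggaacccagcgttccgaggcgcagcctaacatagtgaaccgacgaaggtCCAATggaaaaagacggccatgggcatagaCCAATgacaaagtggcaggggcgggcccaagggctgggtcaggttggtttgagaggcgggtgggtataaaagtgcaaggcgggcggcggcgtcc

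Promoter windows, 250 bases before to 50 bases after a start, were found by symbol for 8 of the 9 genes (MOGS was not among them). The RefSeq starts of the printed genes differ from the gene starts in the deposited coordinates. For GANAB they are 62646613 and 62646726, and for PRKCSH 11435635 and 11435284. For CANX they are 179698929 and 179678628, and for CALR 12938609 and 12938578. The printed PRKCSH and CANX sequences therefore lie wholly inside the genes at the deposited coordinates, and those of GANAB and CALR partly. The full ER stress response element, to which the unfolded protein response factor ATF6 binds together with NF-Y, was present in CANX and CALR. In CANX it lay 151 to 133 bases before the printed start. This single site fell in 3 of the 4 CANX windows, because those 3 overlap. In CALR the element lay on the reverse strand, 225 to 207 bases before the start. Of all 35116 windows, 27 (0.0769%) held the full element, and of 27305 genes, 25 (0.0916%). The CCAAT letters, a part of that element, occurred 2 times in GANAB, at 119 to 115 and 83 to 79 bases before the start, and 0 times in the printed PRKCSH window, while a PRKCSH window at a start further into the gene held 5. CCAAT was present in 34.6% of all windows. LMAN1 held it 1 time, and UGGT1, UGGT2 and MAN1B1 did not hold it. A second stress element (ATTGG, 1 base of any kind, then CCACG, where ATTGG is CCAAT on the other strand; 0.0541% of windows), TGACGTGG (0.729%) and TGATGNAAT (0.991%) were not in any window of the 8 genes. All motifs were searched on both strands, and a match describes letters only.

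Both chains of glucosidase II were higher in siCCNL2, by a larger factor than the other 7 genes. GANAB, which encodes the catalytic alpha chain, had 769, 773 and 791 CPM in siCCNL2, against 266, 267 and 269.5 CPM in siNC. The libraries of each group lay within a few percent of each other and far from those of the other group. The difference was 2.91-fold (log2 fold change 1.54, SE 0.033). GANAB rested on 10365 to 14024 counts per siCCNL2 library and 4223 to 4497 per siNC library, so counting error was small. Of 10611 tested genes that averaged 5 CPM or more in siCCNL2, 6 had a larger log2 fold change. In bulk RNA, a change in the share of cells that express a gene and a change in RNA per cell cannot be told apart.

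PRKCSH, which encodes the beta chain that keeps the alpha chain in the ER and helps it to bind glycans, had 242, 246 and 261 CPM in siCCNL2, against 137, 143 and 139 CPM in siNC. The groups did not overlap. The difference was 1.79-fold (log2 fold change 0.84, SE 0.041), smaller than that of its partner. The authors' TPM-like score divides by a length for each gene, and how that length was set is not given. Levels of different genes on this score, here and below, depend on that length. The score ratio of GANAB to PRKCSH was 1.78, 1.76 and 1.70 in siCCNL2 libraries and 1.09, 1.04 and 1.09 in siNC libraries. On this score, the transcripts of the alpha and beta chains stood near parity in siNC, with the alpha chain in excess in all 3 siCCNL2 libraries.

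MOGS, which encodes glucosidase I and acts on the glycan immediately before glucosidase II, was close to level between the groups. It had 49.6, 51.7 and 43.6 CPM in siCCNL2 and 49.8, 53.6 and 53.1 CPM in siNC, so that the groups overlapped, with siCCNL2 replicate 3 the lowest library. Its log2 fold change was -0.11 (SE 0.064). The ratio of the GANAB score to the MOGS score averaged 11.9 in siCCNL2 and 3.77 in siNC, without overlap.

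**Figure D1:**
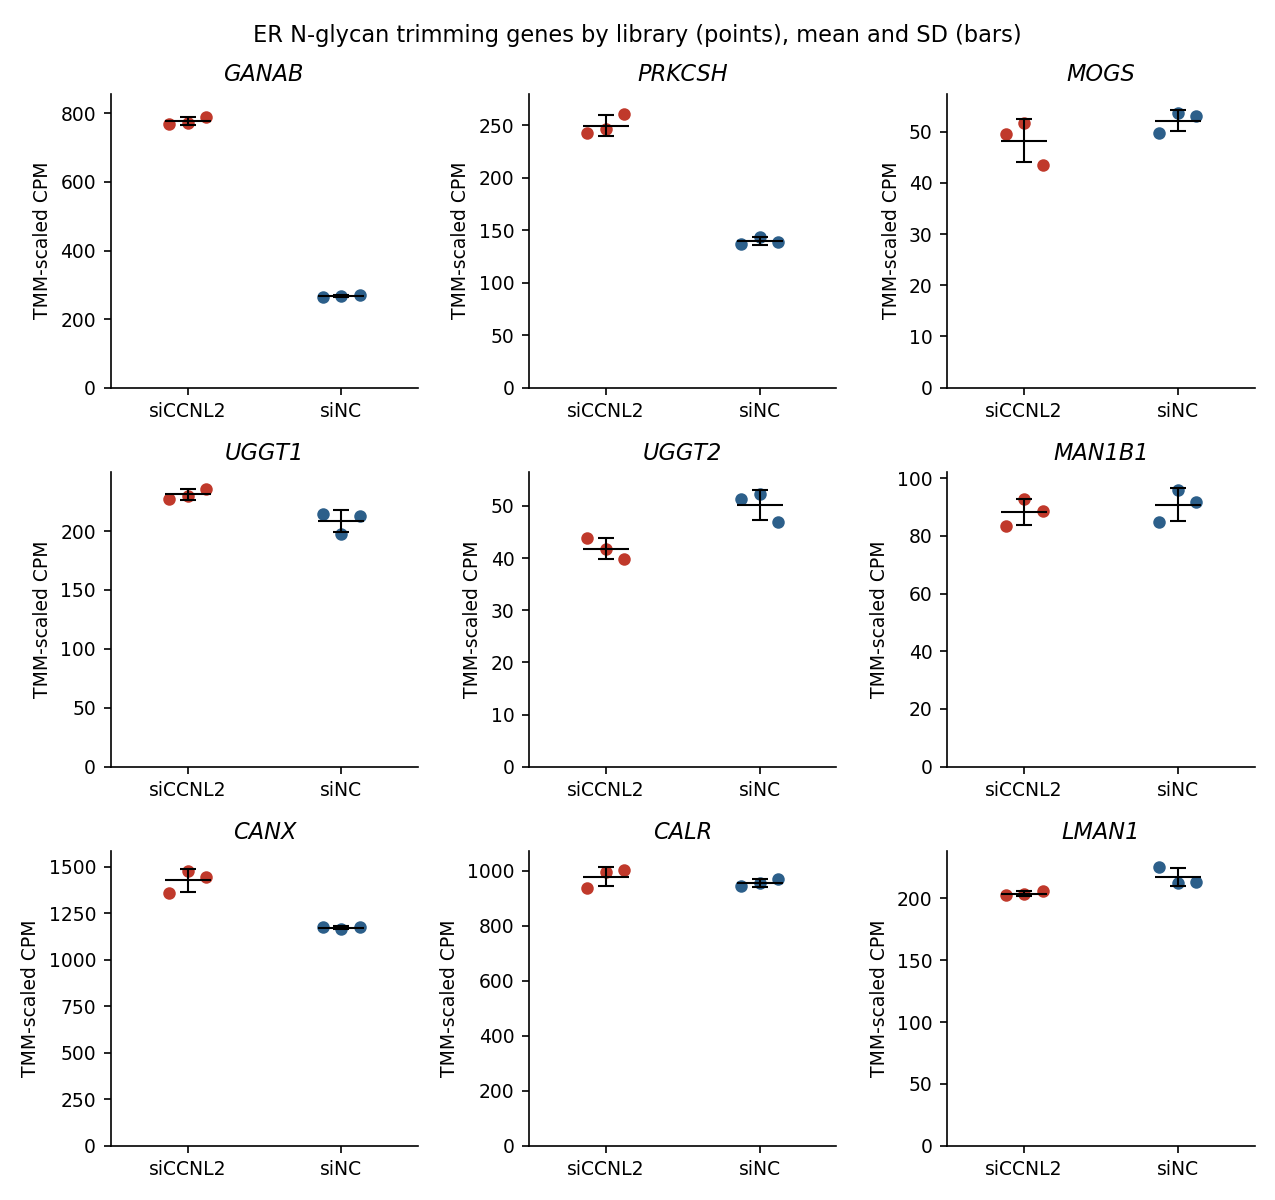
TMM-scaled CPM (y axis, from 0) of each of the 9 genes in siCCNL2 (left) and siNC (right) libraries; points are replicates 1 to 3 from left to right, and the horizontal line and bars are mean and SD (n = 3 each). GANAB (778 against 267 CPM on average) and PRKCSH (249.6 against 139.7 CPM) have the largest ratios between the group means, while MOGS, MAN1B1 and CALR overlap between the groups.

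The glucosyltransferase genes had log2 fold changes of opposite sign. UGGT1, the main folding sensor that returns a glucose to unfolded glycoproteins, had 227, 230.1 and 236 CPM in siCCNL2, against 214, 197 and 213 CPM in siNC. All siCCNL2 libraries were above all siNC libraries, by a small margin (log2 fold change 0.15, SE 0.040). The UGGT1 call was lost without siNC replicate 2, its lowest library (log2 fold change 0.11), and when log2 scores were tested with a pseudocount of 1 or 0.1 (0.14 in both).

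UGGT2, a paralogue of UGGT1, had 43.8, 41.7 and 39.8 CPM in siCCNL2, against 51.3, 52.3 and 46.9 CPM in siNC. All siCCNL2 libraries were below all siNC libraries (log2 fold change -0.26, SE 0.062). The ratio of the UGGT1 score to the UGGT2 score was 2.33, 2.49 and 2.67 in siCCNL2 and 1.88, 1.70 and 2.05 in siNC, without overlap. UGGT1 was the more abundant transcript per length in every library.

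The lectin chaperone genes are among the most abundant of the 9. CANX, which encodes the membrane-bound calnexin, had 1356, 1479 and 1444 CPM in siCCNL2, against 1173, 1166 and 1178 CPM in siNC. The groups did not overlap, although the siCCNL2 libraries were more spread (log2 fold change 0.28, SE 0.033). CALR, which encodes the soluble calreticulin, had 938, 996 and 1004 CPM in siCCNL2 and 943, 955 and 969 CPM in siNC. Its groups overlapped, with siCCNL2 replicate 1 the lowest of all 6 libraries, and its log2 fold change was 0.03 (SE 0.032). Both genes hold the stress element printed above. The score of CANX relative to CALR was 0.381 to 0.393 in siCCNL2 and 0.322 to 0.329 in siNC.

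The genes for the exits from the cycle had log2 fold changes close to 0. MAN1B1, an alpha-mannosidase that marks misfolded glycoproteins for degradation, had 83.5, 92.7 and 88.6 CPM in siCCNL2 and 84.8, 96.0 and 91.8 CPM in siNC, with overlapping groups (log2 fold change -0.04, SE 0.054). LMAN1, a mannose-binding cargo receptor that carries coagulation factors V and VIII to the Golgi, had 202, 203 and 206 CPM in siCCNL2, against 225, 213 and 214 CPM in siNC. Its siCCNL2 libraries were all lower, but the difference was small (log2 fold change -0.09, SE 0.038) and it was not called, although upper-quartile scaling (-0.11) or no composition factor (-0.10) brought a call.

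**Figure D2:**
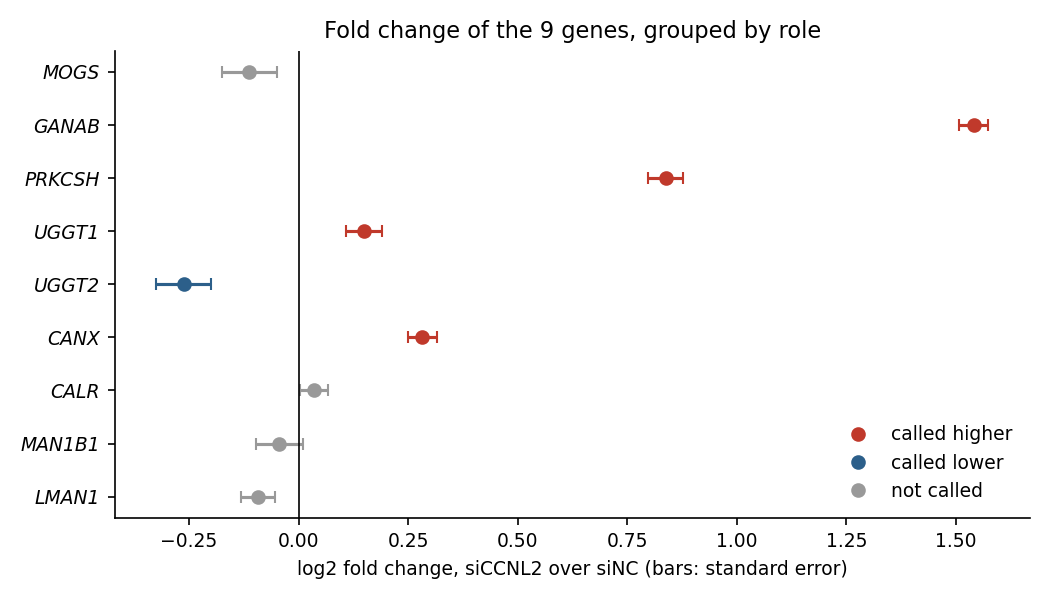
Log2 fold change, siCCNL2 over siNC (x axis), with its standard error (bars) for the 9 genes grouped by role; red is called higher, blue called lower and grey not called, at an adjusted p under 0.05. GANAB (1.54) and PRKCSH (0.84) stand far to the right, UGGT2 (-0.26) is the one gene called lower, and the other values lie between -0.11 and 0.28.

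Of the 9 genes, 4 were called higher (GANAB, PRKCSH, UGGT1 and CANX), 1 lower (UGGT2) and 4 were not called, at an edgeR adjusted p under 0.05 over all 15346 genes tested. Among all tested genes 17.2% were called higher, 16.5% lower and 33.6% in either direction. The groups did not overlap in CPM for 6 of the 9, against 43.9% of all tested genes; siCCNL2 was above siNC in 4 of them (22.1% of all tested genes) and below in 2 (21.8%). The median log2 fold change was 0.03 over the 9 genes and 0.00 over all tested genes, and the median absolute value 0.15 and 0.19. Because the genes were chosen with this contrast known, nothing is read from these counts.

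**Figure D3:**
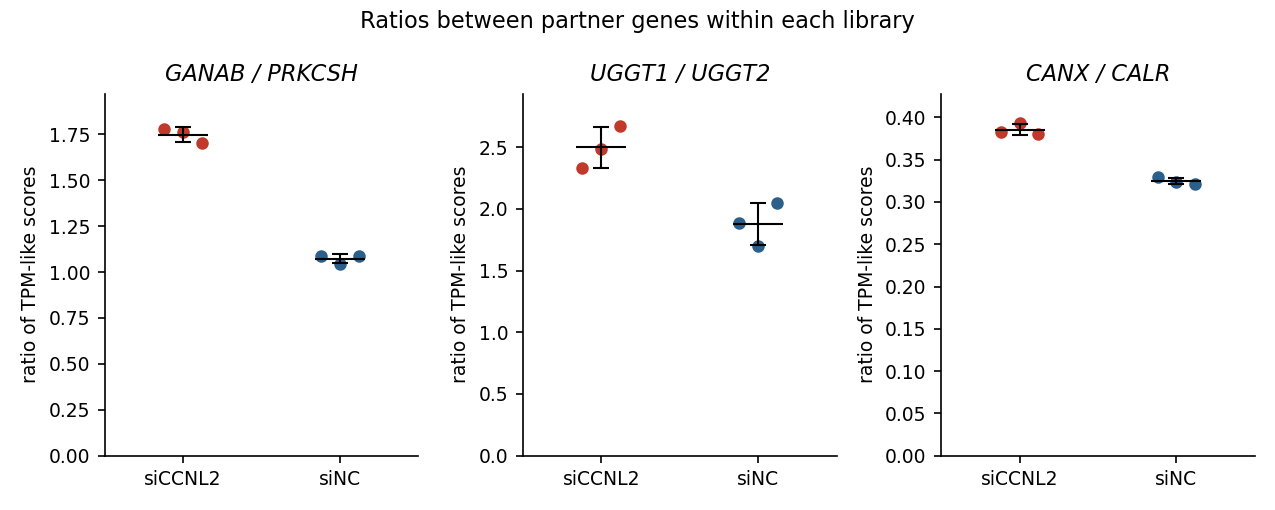
Ratio of TPM-like scores (y axes, from 0) between partner genes within each library, in siCCNL2 (left) and siNC (right); points are replicates 1 to 3 from left to right, with mean and SD (n = 3 each). For each pair the siCCNL2 libraries lie above the siNC libraries: GANAB over PRKCSH at 1.75 against 1.07 on average, UGGT1 over UGGT2 at 2.50 against 1.88, and CANX over CALR at 0.385 against 0.325.

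In level per length, CALR was the most abundant of the 9 transcripts in both groups, with a TPM-like score of 1572 ± 41.5 in siCCNL2 and 1547 ± 10.0 in siNC (SD, n = 3 each). GANAB reached 608 ± 16.5 in siCCNL2, where its range overlapped that of CANX (606 ± 15.2), against 211 ± 0.466 in siNC, where CANX stood clearly above it at 502 ± 2.89. PRKCSH followed at 348 ± 15.3 in siCCNL2 and 196 ± 5.32 in siNC. LMAN1 came next, at 129 ± 3.08 in siCCNL2 and 139 ± 5.24 in siNC. UGGT1 followed at 65.5 ± 1.76 in siCCNL2 and 59.5 ± 2.54 in siNC, and MOGS at 51.4 ± 4.17 in siCCNL2 and 56.0 ± 2.05 in siNC. The least abundant were MAN1B1, at 37.6 ± 1.13 in siCCNL2 and 39.0 ± 2.39 in siNC, and UGGT2, at 26.3 ± 1.63 in siCCNL2 and 31.8 ± 2.09 in siNC. Neighbours in this order did not overlap, except GANAB and CANX in siCCNL2 and UGGT1 and MOGS in siNC.

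On GRCh38, the deposited table places GANAB on chromosome 11, minus strand, from 62624826 to 62646726, where it overlaps no other listed gene. PRKCSH is on chromosome 19, plus strand, from 11435284 to 11450968, and shares 499 bases with ODAD3 on the opposite strand, which had 0 to 4 counts per library. UGGT1 (chromosome 2, 128091200 to 128195677), MAN1B1 (chromosome 9, 137086857 to 137109189), CANX (chromosome 5, 179678628 to 179731641) and CALR (chromosome 19, 12938578 to 12944489) are on the plus strand. MOGS (chromosome 2, 74461057 to 74465410), UGGT2 (chromosome 13, 95801580 to 96053482) and LMAN1 (chromosome 18, 59327823 to 59359265) are on the minus strand. Genes that overlap UGGT1, UGGT2, MAN1B1, CANX or CALR had 0 to 5 counts per library, and none overlaps MOGS or LMAN1. Neighbours within 5000 bases of either end of GANAB are given outside the rule for named genes, and were added once the tables were in hand; AP001458.2 was at 0 in all libraries. INTS5, a subunit of the Integrator complex that ends 121 bases upstream of GANAB, had 35.5 ± 1.99 CPM in siCCNL2 and 33.5 ± 1.01 CPM in siNC (SD, n = 3 each; log2 fold change 0.08, edgeR adjusted p = 0.378). B3GAT3, a glucuronosyltransferase of proteoglycan linker synthesis 2671 bases downstream, fell, to 39.0 ± 1.78 CPM in siCCNL2 against 57.7 ± 1.09 CPM in siNC (log2 fold change -0.56, edgeR adjusted p = 3.74e-08).

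Among the tested genes whose profile over the 6 libraries was most like that of GANAB were the secreted matrix protein gene CCDC80, the tropomyosin gene TPM4, the opioid growth factor receptor gene OGFR and the growth factor binding protein gene IGFBP3. Likeness was the root mean square difference of log2 CPM centred on each gene's mean, and it ran from 0.028 for CCDC80 to 0.089 for IGFBP3. Of 10630 genes compared, PRKCSH ranked 87 (0.35) and CANX 1388 (0.63). The other partners ranked lower: UGGT1 2715, CALR 4566, MAN1B1 6126, LMAN1 6925, MOGS 7429 and UGGT2 9170. TPM4 and OGFR overlap genes on the opposite strand that averaged under 5 CPM. The 6 libraries form the siCCNL2 and siNC groups, so a gene with a similar group difference scores as alike, and no p is given.

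The rest of the N-glycan pathway was compared through 7 lists that exclude the 9 genes. Of their 99 genes 90 were tested, of which 18 rose, 13 fell and 59 were not called. That is 34.4% called, against 33.6% of all tested genes, and the median log2 fold change was 0.02. The counts per list below are to be set beside 17.2% of all tested genes called higher and 16.5% called lower. The lists were chosen with earlier results of these data known, so no theme is read from these counts.

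Of 24 genes that build the lipid-linked sugar before its transfer, 3 were called lower (median log2 fold change -0.00). Without siCCNL2 replicate 1 the glucosyltransferase gene ALG10B was called higher (0.26, edgeR adjusted p = 0.045). ALG13, of the same list, was called lower in that setting (-0.22, edgeR adjusted p = 0.0282) and with upper-quartile scaling (-0.18, edgeR adjusted p = 0.0446). ALG2, a mannosyltransferase, fell to 38.9 ± 1.98 CPM in siCCNL2, against 48.4 ± 2.86 CPM in siNC (log2 fold change -0.32, edgeR adjusted p = 3.34e-04). DOLK, dolichol kinase, fell by 0.30 on the log2 scale (edgeR adjusted p = 0.0037). DPM1, which makes the mannose donor, fell by 0.15 (edgeR adjusted p = 0.0187), which did not pass once siCCNL2 replicate 1, siCCNL2 replicate 3 or siNC replicate 1 was left out (edgeR adjusted p 0.071 to 0.119).

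The list for oligosaccharyltransferase, which moves the sugar onto the protein, also holds the lectin gene MLEC. Of its 13 genes 3 rose, MLEC among them, and 1 fell (median 0.08). OSTC, an accessory subunit, rose to 96.2 ± 2.62 CPM in siCCNL2, against 70.8 ± 4.58 CPM in siNC (log2 fold change 0.44, edgeR adjusted p = 3.63e-07). MLEC, the ER lectin malectin, which binds the glycan that glucosidase I has trimmed, rose to 279 ± 10.2 CPM in siCCNL2, against 216 ± 5.39 CPM in siNC (0.37, edgeR adjusted p = 5.12e-08). RPN1 rose by a log2 fold change of 0.12 (edgeR adjusted p = 0.0113) and the catalytic subunit gene STT3B fell by 0.12 (edgeR adjusted p = 0.0128). RPN1 lost its call without siCCNL2 replicate 3 or siNC replicate 2 (adjusted p 0.0512 and 0.0626), and STT3B without siNC replicate 1 or 3 (0.0554 and 0.0522). MAGT1 gained a call as higher without siNC replicate 1 (0.14, edgeR adjusted p = 0.0386), and STT3A without siNC replicate 3 (0.12, edgeR adjusted p = 0.0321).

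Of 10 chaperones that work with or beside the lectins, 6 were called, all higher (median 0.10), a count of 3 without siCCNL2 replicate 2 or without siNC replicate 2. P4HB, protein disulfide isomerase, rose to 581 ± 6.85 CPM in siCCNL2, against 419.7 ± 9.01 CPM in siNC (log2 fold change 0.47, edgeR adjusted p = 6.27e-11). PDIA3, the disulfide isomerase that calnexin and calreticulin bring to glycoproteins, averaged 372 CPM in siCCNL2, against 328 CPM in siNC, and rose (0.18, edgeR adjusted p = 0.0014). HSPA5, which encodes the chaperone BiP, rose by a log2 fold change of 0.19 (edgeR adjusted p = 4.94e-05).

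Among genes of mannose trimming and glycoprotein degradation, 2 rose and 1 fell of 14 tested (median -0.04), and the mannosidase-like genes EDEM1, EDEM2 and EDEM3, singled out after their values were seen, were not called. With upper-quartile scaling EDEM3 was called lower (-0.14, edgeR adjusted p = 0.0357). EDEM1 was called higher under 4 of the 16 alternatives (0.11 to 0.13, edgeR or limma adjusted p 0.0364 to 0.047). HERPUD1, a stress-inducible organizer of ER-associated degradation, rose to 54.8 ± 5.08 CPM in siCCNL2, against 41.8 ± 0.329 CPM in siNC (log2 fold change 0.39, edgeR adjusted p = 3.18e-05). OS9, a lectin that reads mannose-trimmed glycans, rose by a log2 fold change of 0.18 (edgeR adjusted p = 0.0024). SYVN1, the ubiquitin ligase of this route, fell by 0.34 on the log2 scale (edgeR adjusted p = 3.72e-04), but it overlaps MRPL49 on the opposite strand (5189 bases), and MRPL49 was called higher, so its counts are uncertain.

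Cargo receptors and retrieval genes rose in 4 and fell in 3 of 14 (median -0.03). MCFD2, the partner of LMAN1 in carrying coagulation factors, fell to 316 ± 0.271 CPM in siCCNL2, against 403 ± 16.9 CPM in siNC (log2 fold change -0.35, edgeR adjusted p = 4.77e-08). It shares 25987 bases with TTC7A of the opposite strand, which was called higher, so reads of the pair may be mixed. The score ratio of LMAN1 to MCFD2 was 0.559 to 0.568 in siCCNL2 and 0.443 to 0.491 in siNC. SURF4, another cargo receptor, rose to 345 ± 6.37 CPM in siCCNL2, against 267 ± 6.14 CPM in siNC (0.37, edgeR adjusted p = 1.28e-08). The coat gene SEC24C (0.31, edgeR adjusted p = 1.38e-05) and KDELR1, a receptor that returns ER proteins from the Golgi (0.20, edgeR adjusted p = 2.36e-04), also rose. ERGIC3 (-0.15, edgeR adjusted p = 0.0136) and ERGIC1 (-0.10, edgeR adjusted p = 0.0395) fell, but ERGIC3 was lost without siCCNL2 replicate 3 or siNC replicate 3 (adjusted p 0.0859 and 0.11) and ERGIC1 under 8 of the 16 alternatives (edgeR or limma adjusted p 0.0574 to 0.171), so that 1 gene was called lower without siCCNL2 replicate 3 or siNC replicate 3.

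Golgi enzymes that remodel the glycan after it leaves the ER rose in 3 and fell in 4 of 12 tested (median -0.06). B4GALT1, a galactosyltransferase, had the largest difference of all 90 pathway genes and rose to 116 ± 3.66 CPM in siCCNL2, against 49.5 ± 2.60 CPM in siNC (log2 fold change 1.23, edgeR adjusted p = 7.54e-15). MGAT5, which adds a branch, rose by a log2 fold change of 0.33 (edgeR adjusted p = 1.12e-06), and the mannosidase gene MAN1A1 by 0.26 (edgeR adjusted p = 0.008), which did not pass once siCCNL2 replicate 3 was left out (edgeR adjusted p = 0.0864) or when limma-trend was run on log2 scores with a pseudocount of 1 (0.072) or 0.1 (0.0681). The mannosidase II genes MAN2A1 (-0.40, edgeR adjusted p = 3.81e-08) and MAN2A2 (-0.35, edgeR adjusted p = 8.60e-05) and the sialyltransferase gene ST3GAL4 (-0.40, edgeR adjusted p = 1.52e-04) fell.

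Of 3 tested relatives of GANAB in glycoside hydrolase family 31, 1 was called, and it was lower. GAA, the lysosomal acid alpha-glucosidase, fell to 38.4 ± 1.90 CPM in siCCNL2, against 47.9 ± 3.27 CPM in siNC (log2 fold change -0.32, edgeR adjusted p = 4.16e-04). GANC and MYORG had log2 fold changes of 0.18 and 0.29 and were not called. MYORG was called higher without siNC replicate 1 (0.47, edgeR adjusted p = 0.0433). MGAM and SI, with 0 to 4 counts per library, did not pass the filter on low counts.

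**Figure D4:**
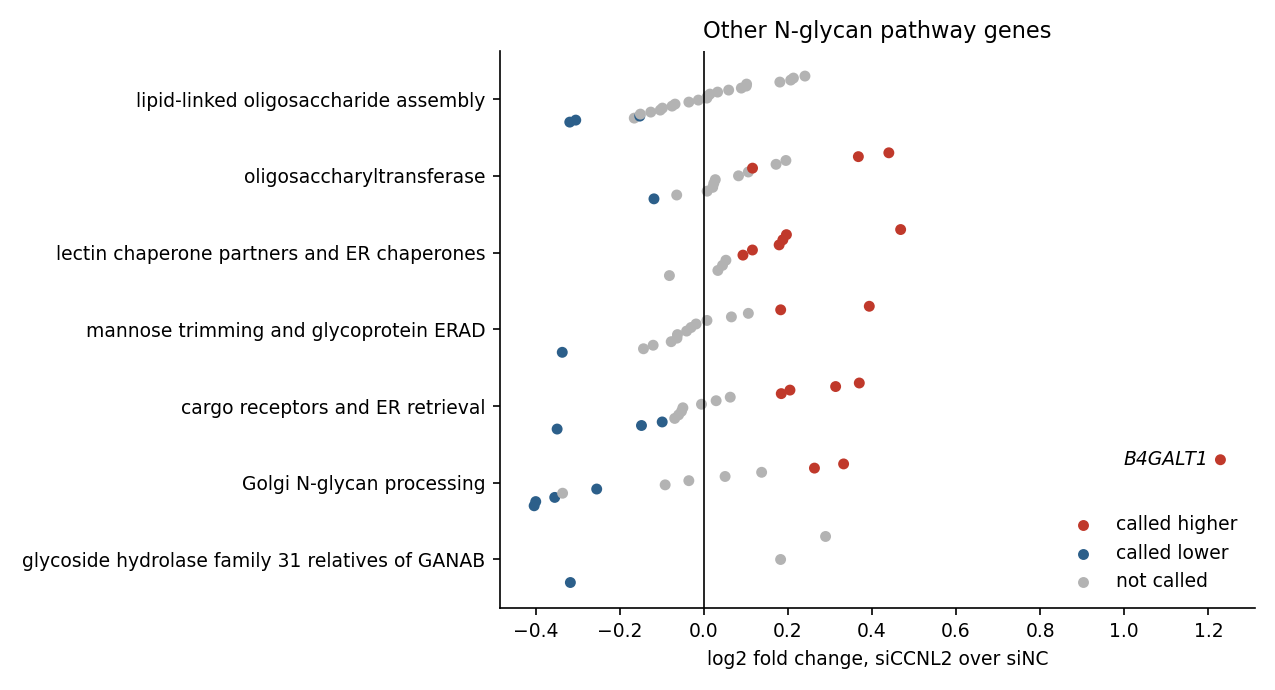
Log2 fold change, siCCNL2 over siNC (x axis), of the 90 tested genes of 7 other N-glycan pathway lists (rows, each point 1 gene, offset by rank within its list); red is called higher, blue called lower and grey not called. B4GALT1 at 1.23 stands apart, and all other genes lie between -0.40 and 0.44 or, for P4HB, at 0.47.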

How the data were processed

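RNA of 6 HEY libraries was analysed from count and score tables. Per the submitters' processing notes, the tools were HISAT2, HTSeq 2.0.1 and fastp 0.23.0, and the build GRCh38, with no role or order stated. Annotation release, library kit and strandedness: not given in the sources used here. A deposited count table holds raw whole-number read counts, and the authors' second table a TPM-like score that sums to 1000000 over distinct names. Names repeated over several rows were used once, and the ratio of count to score gave 1 length per gene in all 6 libraries (largest relative deviation 1.36e-09, genes with 100 or more counts in each).

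Groups came from the sample titles. filterByExpr kept 15346 genes and 99.8% of counts per library. edgeR 4.0.16 in R 4.3.3 was used with TMM factors and its quasi-likelihood test without covariates, with Benjamini-Hochberg adjustment over all tested genes and a threshold of 0.05. SE is the log2 fold change over the square root of F. Promoters came from RefSeq (GRCh38.p14).

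The 9 genes, the 7 pathway lists and the marker lists were chosen with earlier results of these data known. Named pathway genes were, per list, up to 3 called genes per direction with the largest change, at least 5 CPM in the higher group and no overlap between groups; the 9 genes, CCNL2, genes that overlap one of the 9, and the 5 genes most like GANAB with a mean of 5 CPM or more were also named, except 1 of these that is not reported here. Alternatives were DESeq2 1.42.0 size factors, upper-quartile and no composition factors, limma-voom (limma 3.58.1), the Wald test of DESeq2, no count filter or a filter of 1 CPM in 3 libraries, limma-trend with log2 scores at a pseudocount of 1 or 0.1, a replicate block and leaving out each library. Standard errors cover only these libraries, and counting precision is lowest for genes with few counts.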

Additional observations from a re-analysis of the deposited data

How the results depend on the processing

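Under the 16 alternatives GANAB kept its direction and its call, with a log2 fold change of 1.52 to 1.55, and PRKCSH ran from 0.81 to 0.86. The number of the 9 genes called ran from 4 to 6, against 5, with UGGT1 lost and LMAN1 gained as described above. The number of all genes called ran from 4179 (without siCCNL2 replicate 3) to 5234, against 5159, and of the pathway genes from 24 to 32, against 31. No scaling moved the median log2 fold change of all genes past -0.02. Of 34 other named genes, 28 kept direction and call under all 16 alternatives and 6 lost the call under at least 1 (DPM1, RPN1, STT3B, ERGIC1, ERGIC3 and MAN1A1). The causes of these losses were not tested.

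With the replicate number as a block, 5234 genes, 5 of the 9 genes and 31 of the pathway genes were called, and the log2 fold change of GANAB was 1.54. The numbers are not stated to mark a shared batch. Deviations of same-numbered libraries from their group means correlated at 0.043, 0.023 and 0.026, and each library correlated best with its own number. Deviations cancel out within each group, so these values are not independent. Correlations this small do not settle whether the numbers mark a batch.

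Genes with few counts, such as MGAT2, were left out by the filter on low counts; without that filter 35107 genes were tested and 4841 called.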
